A study of Mus musculus with 127 samples.

Results

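The 4 Hox gene clusters of the mouse were followed along the cutting axis of single embryonic stem cell nuclei. Each cluster was taken as the 1 Mb region of the mm10 genome around it: 6:51700001-52700000 for Hoxa, 11:95800001-96800000 for Hoxb, 15:102400001-103400000 for Hoxc and 2:74200001-75200000 for Hoxd. All 10 kb windows that start in these regions were members, so the clusters made up 4 of 2648 regions of 1 Mb on the 21 chromosomes and 2225 of 1219379 located windows. The regions were chosen by coordinates alone, with no measured value.

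Sequential genome architecture mapping sequences the DNA of successive thin sections of 1 nucleus (nuclear profiles), and the sections in which a locus turns up give its place on the cutting axis. The series applied it to untreated F123 embryonic stem cells, a hybrid of the CAST and 129 strains, grown with LIF and passaged off their feeder cells, per the labels. The samples were 122 profiles of 10 nuclei and 5 controls with no positions. The titles start with B18F for Cell25, Cell26, Cell27, Cell28, Cell38 and Cell39 and with B16F for Cell17, Cell18, Cell19 and Cell20, and these prefixes are called batches here. The groups share 1 cell line and 1 growth condition, and the labels name no separate cultures, so the p-values speak for the variation among these nuclei, which may be technical. The files hold no expression values, so the cell type named by the labels was not checked against markers.

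Each nucleus had 2 files, numbered 0 and 1, that give 1 position to each located window. What the numbers stand for is not given in the sources used here. The axis has no named unit, so distances are in axis units, and neighbouring slices lie 0.2 axis units apart. The sampled span was shortest in Cell26 (1.2 axis units) and longest in Cell17 (4.4), and the number of located windows on the 21 chromosomes ran from 56734 in Cell39 to 189636 in Cell25. How many reads stand behind a window is unknown. The nucleus is the unit of replication, and all tests are exact and two-sided.

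Hox genes encode homeodomain transcription factors that give cells their identity along the head to tail axis of the embryo. Mammals carry them in 4 clusters that arose by duplication of 1 ancestral cluster, and within a cluster the genes are switched on in the order in which they lie on the chromosome. In embryonic stem cells the clusters are known as silent domains coated by Polycomb proteins, and contacts between Polycomb-bound Hox clusters have been described in these cells. The distance between the clusters along the axis of each nucleus is therefore the quantity compared here.

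The 4 regions held 39 protein-coding Hox genes, 11 in Hoxa, 10 in Hoxb, 9 in Hoxc and 9 in Hoxd. Genes of the same number in different clusters are copies of each other (paralogs), and groups 4, 9 and 13 had a copy in all 4 clusters. The Hox genes spanned 105.5 kb in Hoxa, 173.9 kb in Hoxb, 115.7 kb in Hoxc and 96.9 kb in Hoxd, so that most of each 1 Mb region was flank. Evx1 lay beside Hoxa13 and Evx2 beside Hoxd13, both homeobox genes of the even-skipped family.

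The microRNAs inside the clusters show the same shared ancestry in sequence. The mature RNAs are printed here 5′ to 3′ from RefSeq (GRCm38.p6, the assembly of mm10), with the seed that pairs with targets (bases 2 to 8) in capitals, because copies in different clusters can be read against each other.
miR-10a-5p (Hoxb, 11:96317186-96317208, plus strand): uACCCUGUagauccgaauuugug
miR-10b-5p (Hoxd, 2:74726074-74726096, plus strand): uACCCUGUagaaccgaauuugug
miR-196a-5p (Hoxb, 11:96265187-96265208, and Hoxc, 15:102973365-102973386, both plus strand): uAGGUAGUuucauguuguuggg
miR-196b-5p (Hoxa, 6:52230129-52230150, minus strand): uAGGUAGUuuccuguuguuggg
miR-615-3p (Hoxc, 15:103014969-103014990, plus strand): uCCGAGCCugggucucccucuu
The mir-10 pair shares its seed and differs at U12A, counted from the 5′ base of miR-10a-5p. The mir-196 RNAs share another seed and differ at A12C, counted from the 5′ base of miR-196a-5p, and the Hoxb and Hoxc copies give the same mature RNA. miR-615-3p has a seed of its own among these RNAs.

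How often the clusters were found comes before where they were. Over both files, Hoxa had 38 to 131 located windows per nucleus (median 48, n = 10), Hoxb 20 to 89 (median 44), Hoxc 26 to 164 (median 53.5) and Hoxd 11 to 135 (median 38.5). The lowest single file held 2 windows of Hoxa, 6 of Hoxb, 5 of Hoxc and 3 of Hoxd, so a cluster's position rested on few windows in some files. Cell39 was lowest for Hoxb, Hoxc and Hoxd, and Cell25 was highest for Hoxc and Hoxd.

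To set these numbers against the chromosome, the windows of each cluster were ranked within each nucleus among all 1 Mb bins of the same chromosome, where percentile 50 is the middle. Hoxc stood at percentile 77.7 ± 18.9 (SD, n = 10), above 50 in 9 of 10 nuclei, with 65 ± 42.5 windows against 43.6 ± 18.1 for the median bin of chromosome 15. The exact sign-flip p was 0.00586 unadjusted and 0.159 after Benjamini-Hochberg adjustment over all bins of the 4 chromosomes. Of those 541 bins, 13.5% were called at an unadjusted p under 0.05 in either direction, and 5.36% were called toward more windows. The Hoxc region ends 0.55 Mb before the last located window of its chromosome, whereas Hoxb, Hoxa and Hoxd lie 25.2, 96.9 and 106.8 Mb from theirs. The rank of Hoxc was 63.8 with file 0 alone (p = 0.109) and 73.5 in batch B18F alone (p = 0.0938), where the call was lost.

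Hoxa stood at percentile 65.2 ± 27.4 (SD, n = 10), above 50 in 7 nuclei, with an exact sign-flip p = 0.117. Hoxb at 49.6 ± 24.1 and Hoxd at 45.9 ± 31.0 were near the middle, with p = 0.969 and p = 0.680. Hoxd averaged percentile 61.1 in B18F nuclei and 23.03 in B16F nuclei, a difference that was not tested.

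Within the regions, the stretch that holds the Hox genes was located at a higher rate than its flanks on average in every cluster. In Hoxa, 42.5% ± 15.1 of the window slots of the Hox stretch were filled (both files counted), against 29.4% ± 15.7 in the flanks, and the stretch was ahead in 9 of 10 nuclei. The values were 30.0% ± 22.8 against 22.8% ± 9.71 in Hoxb (ahead in 6 nuclei), 38.8% ± 18.2 against 31.6% ± 21.98 in Hoxc (7 nuclei) and 29.1% ± 24.2 against 22.98% ± 16.985 in Hoxd (8 nuclei; SD, n = 10 for all). Within nuclei the difference averaged 13.1 ± 10.1 percentage points in Hoxa, 7.20 ± 14.5 in Hoxb, 7.10 ± 11.4 in Hoxc and 6.11 ± 9.05 in Hoxd (SD, n = 10). These rates were not tested and no other gene-dense stretch was set beside them.

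Single Hox genes differed in how many nuclei located any window that touches them. Among group 4 genes, Hoxa4 was found in 10 nuclei, Hoxc4 in 8, Hoxb4 in 7 and Hoxd4 in 3. A gene that touches more windows has more chances to be located: Hoxc4 touches 3, Hoxa4 and Hoxb4 touch 2 each and Hoxd4 touches 1. Genes that overlap, as Hoxa3 and Hoxa4 do, share windows.

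Group 9 genes, which act in the trunk, differed less in this count. Hoxa9 and Hoxc9 were located in 7 nuclei each, Hoxd9 in 6 and Hoxb9 in 5. Of these, Hoxc9 and Hoxd9 touch 2 windows each and Hoxa9 and Hoxb9 touch 1 each. Among group 13 genes, which pattern the tail end, the limbs and the genitalia, Hoxa13 and Hoxc13 were found in 8 nuclei each, Hoxd13 in 6 and Hoxb13 in 2. Hoxb13 lies apart from the rest of its cluster and touches 1 window, as does Hoxc13, while Hoxa13 and Hoxd13 touch 2 each. For comparison, the mean window of the region was located in 4.78 nuclei for Hoxa, 3.85 for Hoxb, 4.94 for Hoxc and 3.75 for Hoxd. Evx1 was found in 8 nuclei and Evx2 in 4. Mir196b, Mir196a-2 and Mir615 were found in 7 nuclei each, Mir10a in 6, Mir10b in 3 and Mir196a-1 in 2.

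**Figure D1:**
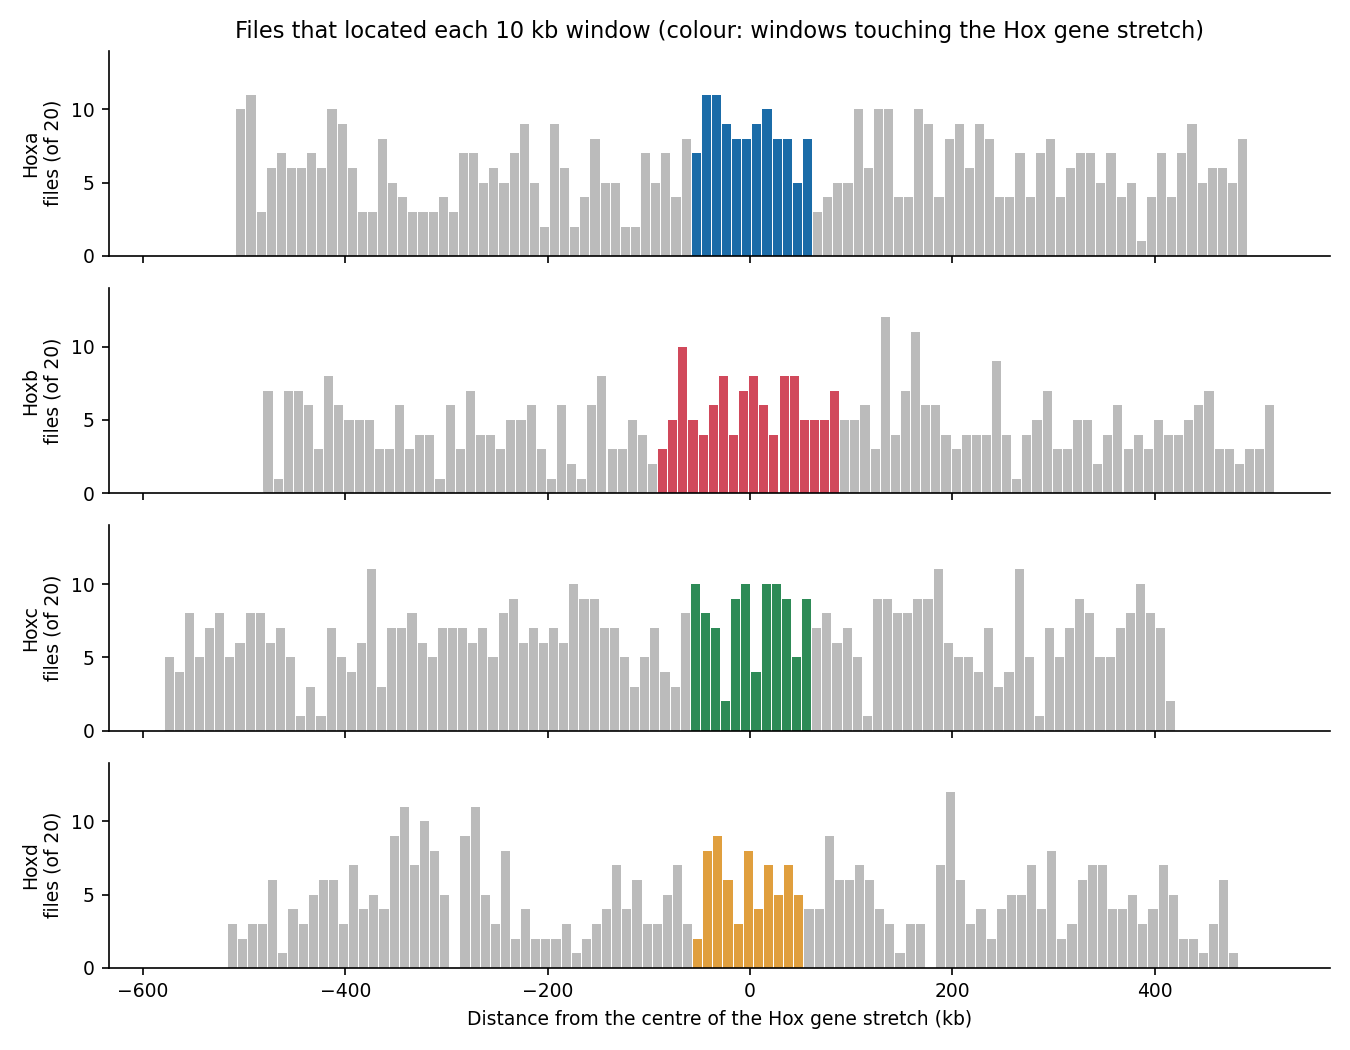
Number of files, out of 20, that located each 10 kb window of the 4 regions, against the distance in kb from the centre of the Hox gene stretch, with the windows that touch the stretch in colour and the flanks in grey. The median window was found in 6 files for Hoxa, 5 for Hoxb, 7 for Hoxc and 4 for Hoxd, and 2 windows of Hoxd were found in none.

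A cluster's position in a file was the mean over its windows. Hoxd lay highest of the 4 clusters in 10 of 20 files and Hoxa lay lowest in 8, but up and down are arbitrary on an axis whose direction may differ between nuclei. The stretch from the lowest to the highest cluster covered 8.57% of the sampled span in file 1 of Cell38 and 73.7% in file 0 of Cell19, with a median of 24.8% over the 20 files. The order of the 4 clusters was the same in both files in 2 nuclei, Cell26 and Cell19. In Cell26 it ran Hoxa, Hoxd, Hoxc, Hoxb, and in Cell19 it ran Hoxb, Hoxa, Hoxc, Hoxd. In Cell39 every cluster lay in the upper part of the span, from 69.4% to 95.9%. This was not particular to the clusters, since the median bins of their chromosomes also lay far from the midpoint there, by 0.861 to 0.918 axis units. By distance from the midpoint in Cell39, Hoxa ranked at percentile 34.1, Hoxb at 33.2, Hoxc at 3.52 and Hoxd at 50.2 of its chromosome.

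**Figure D2:**
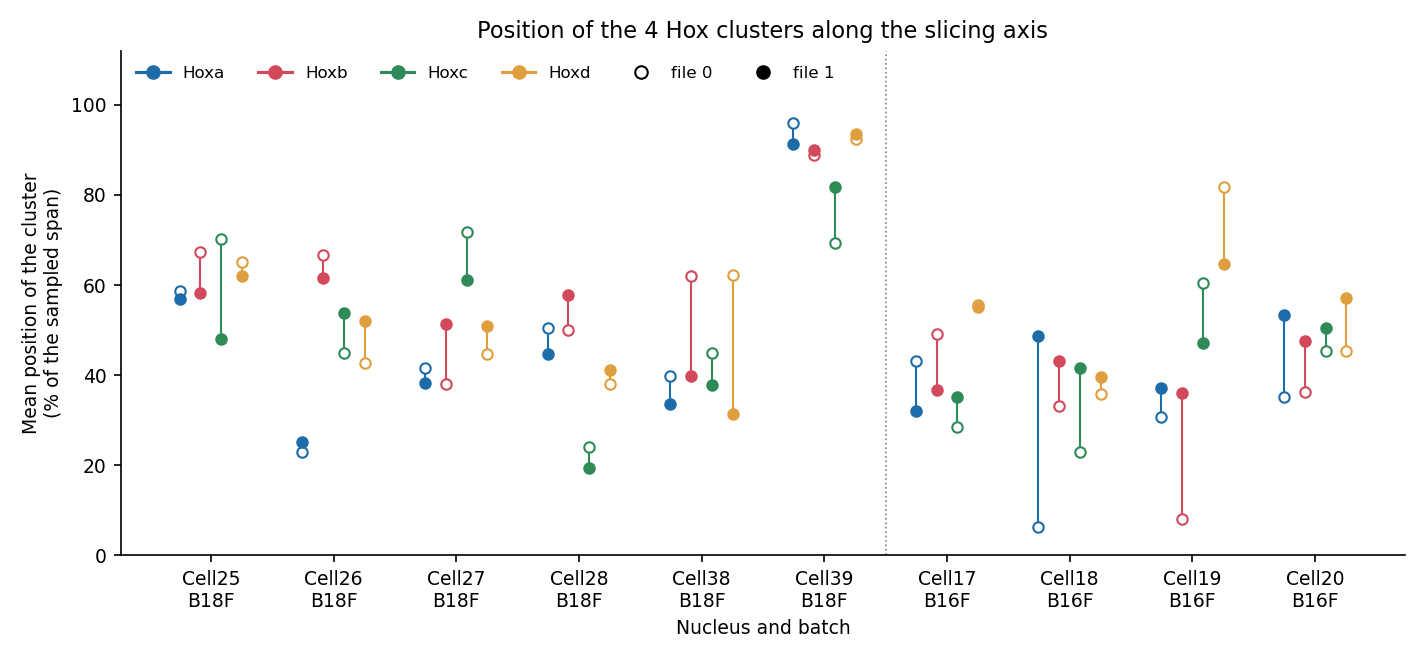
Mean position of each Hox cluster as a percent of the sampled span of its nucleus, with file 0 as open and file 1 as filled circles joined by a line, for 6 B18F nuclei and 4 B16F nuclei. Clusters of 1 nucleus are spread over up to 73.7% of the span (file 0 of Cell19), and the 2 files of a cluster are far apart in places, such as Hoxa in Cell18.

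For the 6 pairs of clusters, the distance between the positions in the same file was ranked among all pairs of 1 Mb bins of the same chromosomes in that file, and the percentiles of the files were averaged. None of the 6 pairs passed the test, in either direction: the exact sign-flip p over 10 nuclei was between 0.0957 and 0.805 for the 6 pairs, where 10 nuclei can give 0.00195 at the smallest. After adjustment over all 107975 bin pairs of the 6 chromosome combinations, 0 had a Benjamini-Hochberg adjusted p under 0.05, and the smallest was 0.735. Since no p can fall under 0.00195, a pair can pass only where a large share of all bin pairs reach p-values that low. The adjustment therefore cannot decide on a single pair. Of the 60 values (6 pairs in 10 nuclei), 31 were under percentile 50, 0 were under percentile 5 and 2 were above percentile 95. Each of these values is a mean over 2 files, and such a mean reaches the extremes less often than a single file. Of the 120 percentiles of single files, 5 were under 5 and 7 were above 95. The shares over all bin pairs were not counted.

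Hoxa and Hoxc were the pair farthest apart by rank. Their distance ran from 0.0940 to 0.437 axis units (median 0.361), and averaged 0.313 ± 0.111 against 0.217 ± 0.0865 for the median bin pair of chromosomes 6 and 15 (SD, n = 10). The percentile was 62.7 ± 21.1, from 31.1 in Cell20 to 90.0 in Cell27, and it was above 50 in 8 nuclei, all but Cell38 and Cell20. The exact sign-flip p was 0.0957 and the adjusted p was 0.887, while 5.18% of the bin pairs of these chromosomes were called. The mean rank of 62.7 was itself above that of 95.7% of those bin pairs. Leaving out Cell20 gave 66.2 with p = 0.0430, the one left-out nucleus that moved this pair past the threshold. The rank reached p = 0.00195 when the median window position was used, at percentile 67.9 and above 50 in 10 of 10 nuclei, a setting under which 5.78% of the bin pairs were called. The other settings that moved it past the threshold stand in the closing section. Among settings that did not, leaving out windows listed in both files gave 51.1 (exact sign-flip p = 0.893), above 50 in 5 nuclei. The rank was 52.6 in 500 kb regions (p = 0.791) and 56.4 with file 1 alone (p = 0.393).

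Hoxa and Hoxb lay 0.0778 to 0.520 axis units apart (median 0.185), and averaged 0.229 ± 0.162 against 0.255 ± 0.121 for the median bin pair (SD, n = 10). The percentile of 43.0 ± 22.1 was under 50 in 7 nuclei and high in Cell26 (89.5) and Cell38 (69.3). The exact sign-flip p was 0.336, with 5.02% of bin pairs called.

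Hoxb and Hoxd lay 0.0501 to 1.12 axis units apart (median 0.149), and averaged 0.267 ± 0.335 against 0.246 ± 0.0982 for the median bin pair (SD, n = 10). They were the nearest pair of the 4 clusters in 4 nuclei, Cell25, Cell27, Cell38 and Cell18, and the farthest in Cell19, at 1.12 axis units, and Cell20. The percentile of 43.9 ± 26.2 was under 50 in 6 nuclei, with an exact sign-flip p = 0.467 and 5.57% of bin pairs called.

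The other three pairs averaged close to the middle. Hoxa and Hoxd were 0.0561 to 0.864 axis units apart (median 0.203), at percentile 51.8 ± 23.3 (SD, n = 10; exact sign-flip p = 0.805, with 5.75% of bin pairs called). Hoxb and Hoxc were 0.131 to 0.697 apart (median 0.234), at percentile 53.1 ± 23.8 (exact sign-flip p = 0.688, n = 10, with 5.97% called). Hoxc and Hoxd were 0.0235 to 1.04 apart (median 0.255), at percentile 53.0 ± 26.02 (exact sign-flip p = 0.721, n = 10, with 6.4% called). Hoxc-Hoxd held both the lowest percentile of all 60 values, 7.35 in Cell26, and one of the high ones, 87.2 in Cell17.

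**Figure D3:**
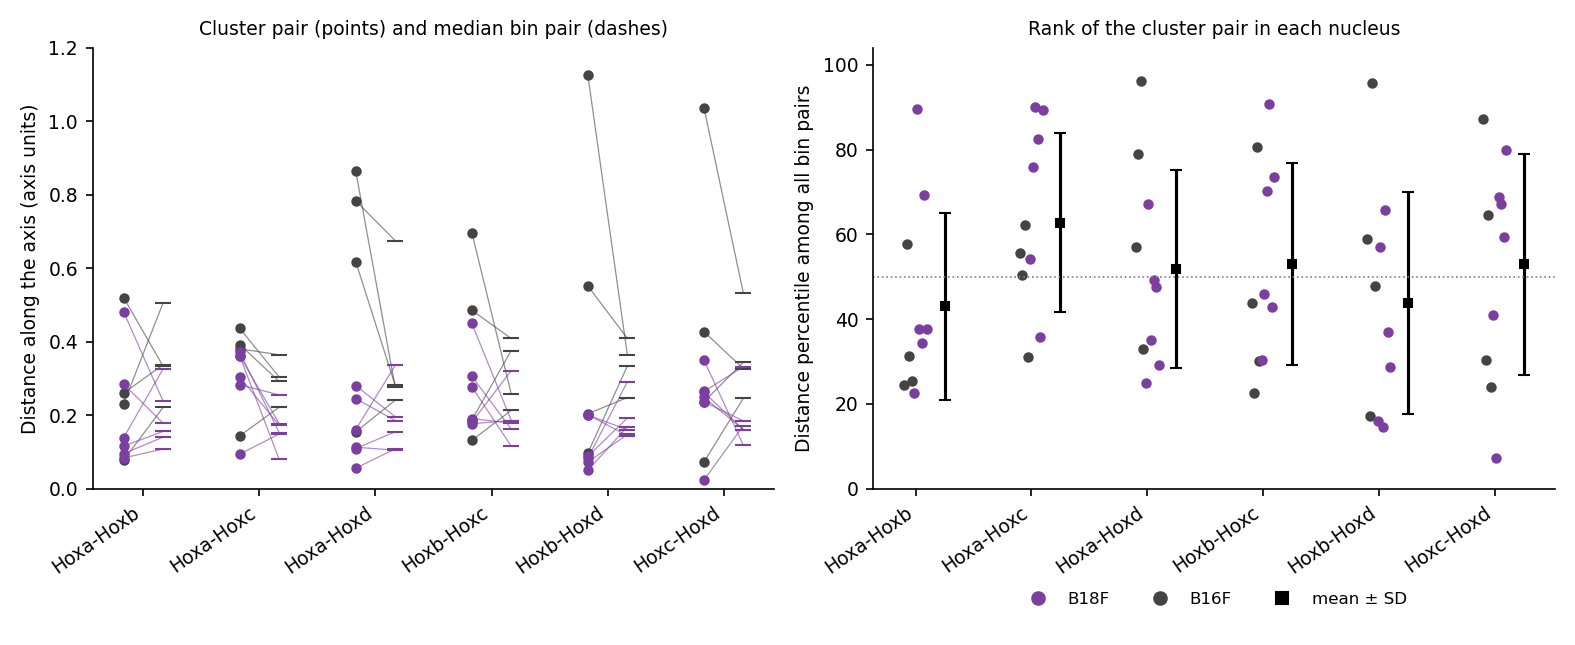
Left, distance in axis units between the 2 clusters of each pair (points) joined to the median distance of all bin pairs of the same chromosomes in the same nucleus (dashes). Right, percentile of the cluster pair among those bin pairs by nucleus, with mean ± SD (n = 10) and a dotted line at 50. Means lie between 43.0 (Hoxa-Hoxb) and 62.7 (Hoxa-Hoxc), and each pair has nuclei on both sides of 50.

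The nuclei differed widely. Averaged over the 6 pairs, the percentile was 31.5 in Cell25 and 31.9 in Cell20, where 5 and 6 of the 6 pairs were under 50, and 71.8 in Cell19, where 1 was. The 6 pairs of a nucleus share clusters, so these are not independent values. In Cell19 the 2 highest ranks of the data were seen, Hoxa-Hoxd at 96.2 and Hoxb-Hoxd at 95.6, both pairs of Hoxd. In Cell26, Hoxc and Hoxd lay 0.0235 axis units apart while Hoxa and Hoxb lay 0.481 apart.

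The 2 files of a nucleus put a cluster pair on the same side of percentile 50 in 38 of 60 cases, and on opposite sides in the rest. The share over all bin pairs was not counted. The cases are not independent, since pairs share clusters and most file pairs list some of the same windows. The files were on opposite sides in Cell28, where Hoxa and Hoxb were 0.00691 axis units apart in file 0 (percentile 2.76) and 0.184 in file 1 (percentile 65.9). They were on the same side in Cell19, where Hoxb and Hoxd were 1.62 axis units apart in file 0 (percentile 99.2) and 0.627 in file 1 (percentile 92.0).

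The batches were compared by an exact permutation test over 210 splits of the nuclei. Hoxa-Hoxd averaged percentile 42.2 in B18F nuclei and 66.3 in B16F nuclei (p = 0.119), and Hoxa-Hoxc averaged 71.3 in B18F nuclei and 49.8 in B16F nuclei (p = 0.129). For Hoxa-Hoxb the values were 48.5 in B18F and 34.7 in B16F (p = 0.381), for Hoxb-Hoxc 59.0 in B18F and 44.3 in B16F (p = 0.348), for Hoxb-Hoxd 36.5 in B18F and 54.9 in B16F (p = 0.310), and for Hoxc-Hoxd 53.9 in B18F and 51.5 in B16F (p = 0.919). These p-values are unadjusted. Within B18F the sign-flip p of the 6 pairs was between 0.0938 and 0.875, and the 4 nuclei of B16F cannot give a p under 0.125.

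Distance between mean positions does not say how often single windows lay close together. As a measure chosen after seeing the data, the share of window pairs, 1 window from each cluster, that lay less than 0.1 axis units apart was therefore counted. Averaged over files, 74.3% (Hoxc) to 79.1% (Hoxb and Hoxd) of a cluster's windows lay on slice positions and the rest between them. The measure thus counts windows close in position, which is not the same as windows in a shared slice. For Hoxa-Hoxc it was 12.3% ± 7.85 against 17.1% ± 12.9 for the median bin pair (SD, n = 10), lower in 9 of 10 nuclei. For Hoxa-Hoxd it was 12.6% ± 9.10 against 15.9% ± 10.9, lower in 8 nuclei, and for Hoxc-Hoxd 11.7% ± 7.16 against 15.3% ± 11.2, lower in 7. For Hoxb-Hoxc it was 13.1% ± 8.21 against 15.8% ± 10.8, lower in 7 nuclei, and for Hoxb-Hoxd 13.6% ± 8.18 against 14.6% ± 9.26, lower in 8. For Hoxa-Hoxb the mean share was slightly above that of the median bin pair, 16.16% ± 14.9 against 16.02% ± 10.99, although it was lower in 7 nuclei and higher in Cell27, Cell39 and Cell19.

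Ranked by the share of window pairs that lay 0.1 axis units or more apart, 3 pairs passed an unadjusted threshold. The percentile was 67.6 ± 17.8 for Hoxa-Hoxc (exact sign-flip p = 0.0195, n = 10, with 6.96% of bin pairs called), 68.1 ± 22.9 for Hoxa-Hoxd (p = 0.0293, exact, with 6.99% called) and 65.6 ± 20.1 for Hoxc-Hoxd (p = 0.0449, exact, with 8.25% called). Hoxa-Hoxb at 62.6 (exact p = 0.104, with 5.81% called), Hoxb-Hoxc at 61.2 (exact p = 0.266, with 7.12% called) and Hoxb-Hoxd at 60.1 (exact p = 0.131, with 7.18% called) did not pass. After Benjamini-Hochberg adjustment over all bin pairs the 6 adjusted p-values were between 0.649 and 0.843. This adjustment cannot decide on a single pair either, since 10 nuclei give no sign-flip p under 0.00195. All 6 mean percentiles lay on the side of fewer window pairs close in position. The pairs share clusters, so these are not 6 independent results.

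Each cluster was also described by itself, in the same way as for located windows: by the spread of its windows in a file, the distance between its first and last 500 kb, the distance between its positions in file 0 and file 1, and its distance from the midpoint of the sampled span. Together with located windows these gave 20 results, of which 4 had an unadjusted p under 0.05, where 13.5% of all bins were called for located windows, 6.47% for spread, 6.02% for the segments, 6.31% for file to file distance and 3.88% for the midpoint. Of the 20, none had an adjusted p under 0.05. One of the 4, the segments of Hoxd, has no adjusted p.

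The first and the last 500 kb segment of the Hoxd region ranked high on average for the distance between them. The boundary at base 74700000 of chromosome 2 runs through the Hox genes, with Hoxd13, Hoxd12, Hoxd11 and Hoxd10 before it, Hoxd9 across it and Hoxd8, Hoxd4, Hoxd3 and Hoxd1 after it. As background, the mouse Hoxd cluster is known to sit between regulatory domains on either side, which act on its opposite ends in the limb. The distance between the segments ran from 0.143 axis units in Cell28 to 0.749 in Cell20 (median 0.362), and averaged 0.382 ± 0.187 (SD, n = 9), larger than the median bin of chromosome 2 in each of the 9 nuclei, where that median averaged 0.198 ± 0.0764 over all 10 nuclei. Cell39, with 11 Hoxd windows, had no file with windows in both segments and gave no value. In Cell19, Cell20 and Cell38 the value came from file 1 alone, which held 37, 20 and 26 Hoxd windows. The part of window number in these distances was not tested.

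The percentile of the Hoxd segments was 73.3 ± 15.1 (SD, n = 9), above 50 in 8 nuclei and at 50 in Cell28, with an exact sign-flip p = 0.00781, and 6.02% of bins of the 4 chromosomes were called, 2.82% toward a larger distance. In an alternative chosen after seeing the data, which uses the same Hoxd windows and is no independent test, subtracting the mean distance between windows of the same segment from that between windows of different segments gave 80.3 (exact p = 0.00391, n = 9, with 5.33% of the bins of chromosome 2 called). In 2 further alternatives of that kind the call was lost, with windows listed in both files left out (63.6, exact p = 0.117, n = 9) and around the same centre in 2 Mb bins (62.99, exact p = 0.107). In the other clusters the segments were at percentile 56.3 ± 27.1 (Hoxa), 50.8 ± 25.5 (Hoxb) and 50.04 ± 26.8 (Hoxc), with exact sign-flip p = 0.465, 0.922 and 0.996 (n = 10). The difference between Hoxd and the others was not tested.

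Windows of Hoxb ranked high for their spread within a file. The mean distance between 2 windows of Hoxb ran from 0.354 axis units in Cell39 to 1.13 in Cell17 (median 0.523), at percentile 67.4 ± 18.8 of chromosome 11 (SD, n = 10) and above 50 in 9 nuclei, all but Cell19. In axis units the margin was small, 0.622 ± 0.241 against 0.559 ± 0.253 for the median bin (SD, n = 10), larger in 6 of 10 nuclei and not in Cell27, Cell38, Cell18 and Cell19. The exact sign-flip p was 0.0156 and the adjusted p was 0.503, with 6.47% of bins called. For the spread, Hoxa was at 54.9, Hoxc at 55.8 and Hoxd at 50.6, with exact p = 0.527, 0.527 and 0.916 (n = 10).

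The 2 files placed Hoxc apart by 0.0638 axis units in Cell28 to 0.621 in Cell25 (median 0.197), which is percentile 65.4 ± 20.6 of chromosome 15 (SD, n = 10), above 50 in 8 nuclei. The exact sign-flip p was 0.0469 and the adjusted p was 0.646, with 6.31% of bins called. The call was lost without 8 of the 10 nuclei in turn (p up to 0.0938), with shared windows left out (60.7, p = 0.285) and in batch B18F alone (69.4, p = 0.0938). Hoxb was at 65.9 (exact p = 0.0918), Hoxa at 53.0 (p = 0.744) and Hoxd at 42.2 (p = 0.393; n = 10). Of the windows located in both files of a nucleus, 79 of 142 had the same position in both for Hoxa, 42 of 97 for Hoxb, 45 of 156 for Hoxc and 45 of 98 for Hoxd, taking positions within 1e-06 axis units as the same. These counts pool the nuclei, and single nuclei weigh heavily in them. Cell25 gave 9 of 71 for Hoxc, while Cell26 gave 26 of 33 and Cell27 gave 29 of 44 for Hoxa. The share over all bins was not counted, and the clusters were not tested against each other.

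No cluster passed the test for its distance from the midpoint of the sampled span. The percentile was 49.7 ± 16.5 for Hoxa, 46.4 ± 19.4 for Hoxb, 45.9 ± 32.2 for Hoxc and 51.2 ± 23.4 for Hoxd (SD, n = 10), with exact sign-flip p between 0.562 and 0.959, and 3.88% of bins were called. With the median position of all windows as the centre in place of the midpoint, Hoxc averaged percentile 70.4 with an exact sign-flip p = 0.0254. It was above 50, thus farther from the centre, in 7 nuclei and below in 3, and 7% of the bins of chromosome 15 were called.

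**Figure D4:**
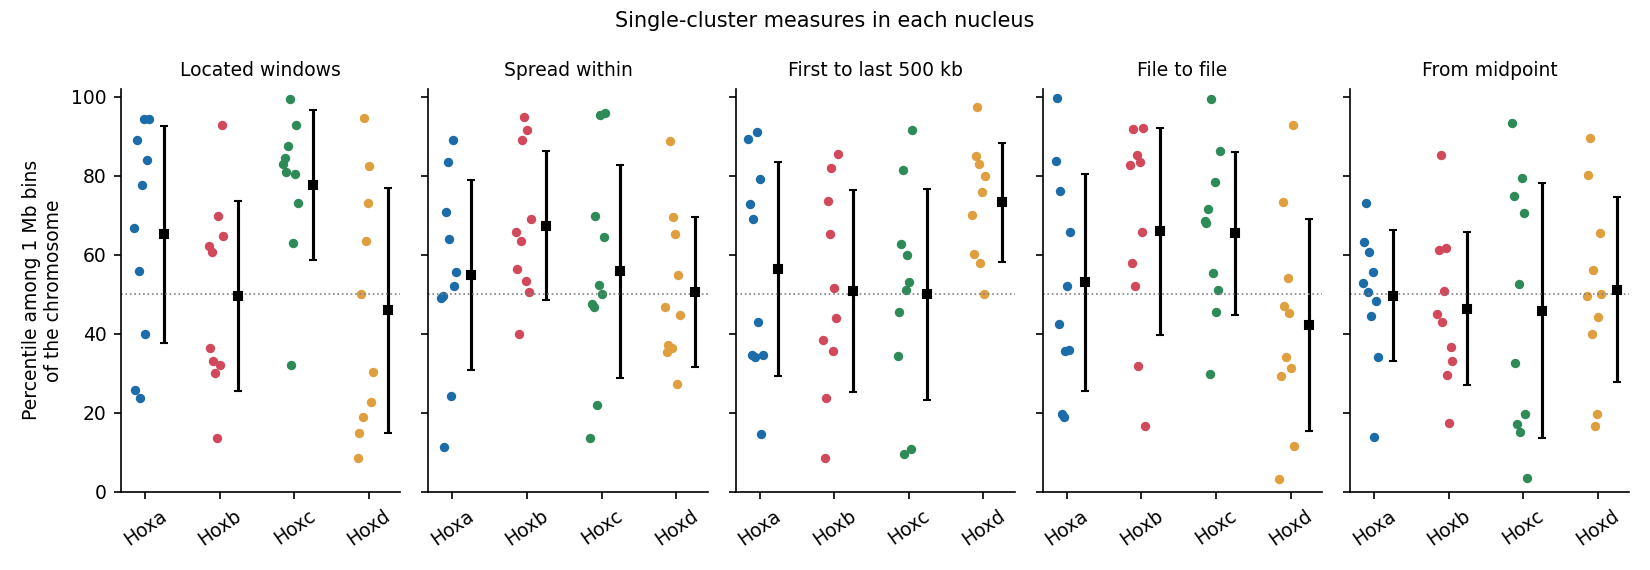
Percentile of each Hox cluster among the 1 Mb bins of its chromosome for 5 measures, with 1 point per nucleus, mean ± SD (n = 10, and 9 for the segments of Hoxd) and a dotted line at 50. Located windows of Hoxc (77.7), the segments of Hoxd (73.3), the spread of Hoxb (67.4) and the file to file distance of Hoxc (65.4) have an unadjusted p under 0.05.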

How the data were processed

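Per the submitters' processing notes, Trim Galore 0.6.4, Bowtie2 2.3.5, Picard and the mm10 build were used. The sources used here do not give how reads became positions. Each of the 20 deposited files lists 10 kb windows with a position on the cutting axis, per the file headers. The unit of that value is not named, and the deposited files carry no read counts, so depth is unknown.

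The members, lists and tests were chosen with earlier results of these data known. Bins of 1 Mb were laid in phase with each Hox region from 3 Mb on and needed 1 window in a file. Every pair of bins stood in for random pairs, so nothing was drawn. Mid-rank percentiles within a nucleus and file were averaged over files, and percentile minus 50 was tested over nuclei with the exact sign-flip test (1024 sign patterns). Adjusted p-values are Benjamini-Hochberg over all bin pairs or bins with a value in all 10 nuclei. With 10 nuclei no sign-flip p falls under 0.00195, so an adjusted p can pass only where many bins or bin pairs reach such low p-values. The computation was tested on simulated data. Genes came from RefSeq (GRCm38.p6). Named genes were, by rule, all Hox genes as counts, groups 4, 9 and 13, Evx1, Evx2 and the mir-10, mir-196 and mir-615 microRNAs. Hoxa3 and the genes beside the Hoxd boundary were named after their values were seen. Homeodomain sequences were not analysed here. Alternatives changed the window minimum, position, files, bins, region size, centre, batch and nuclei. Python 3.11.15, numpy 2.4.6, pandas 2.3.3 and scipy 1.17.1 were used.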

Additional observations from a re-analysis of the deposited data

Results flagged for a closer look

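In 5 of 52 sets of 10 nuclei (9 for the segments of Hoxd), 1 nucleus stood apart from the rest by Dixon's criterion. By chance it flags about 1 set in 20 where values are normally distributed, which distances bounded at 0 need not be. All 5 were distances in axis units, and no set of percentiles was flagged. Hoxb and Hoxd lay 1.12 axis units apart in Cell19, where the next nucleus had 0.552. Hoxc and Hoxd lay 1.04 axis units apart in Cell17, where the next had 0.427. The 500 kb segments of Hoxa lay 0.868 axis units apart in Cell17, where the next had 0.382, and those of Hoxb lay 0.913 apart in Cell20, where the next had 0.488. File 0 and file 1 placed Hoxa 1.36 axis units apart in Cell18, where the next nucleus had 0.492, and file 0 of Cell18 held 2 windows of Hoxa. Cell17 has the longest sampled span, 4.4 axis units. The part of window number and span in these values was not tested.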

How the results depend on the processing

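Leaving single nuclei aside, 172 alternatives were run over the 26 results: 7 lost the call (unadjusted p of 0.05), 10 gained one, 40 crossed percentile 50 and the rest kept direction and side of the threshold. Of the 40, 39 passed the threshold neither before nor after. Of 96 alternatives for pairs, 8 had p under 0.05 and 0 of these put a pair nearer, while 4.52% to 9.3% of all bin pairs were called under the settings other than single batches. The cause of these changes was not tested, and window number, few nuclei and unknown depth limit all of them. Values below are mean percentiles. For pair distances, Hoxa-Hoxc passed the threshold with the median position (67.9), file 0 alone (69.04), all 4 combinations of files (65.8) and as a distance minus the median in percent of the span (5.73). Hoxa-Hoxc was near the middle with shared windows left out (51.1) and 500 kb (52.6), and at 56.4 with file 1 alone. It also passed with the share of window pairs 0.1 axis units or more apart, called slices below (67.6), as did Hoxa-Hoxd (68.1) and Hoxc-Hoxd (65.6). Hoxb-Hoxc passed with the mean over pairs of single windows (69.8). Hoxa-Hoxb crossed 50 with single windows (58.7), slices (62.6) and percent of span (0.121, where 0 is no difference). Hoxb-Hoxd crossed with single windows (60.5), slices (60.1), percent of span (1.10), the median position (50.2), file 1 alone (50.5), files joined (52.1) and B16F alone (54.9). Hoxa-Hoxd crossed with 5 windows (47.7), 500 kb (49.0), files joined (49.0), shared windows left out (49.9) and B18F alone (42.2). Hoxb-Hoxc crossed with file 1 alone (41.1), shared windows left out (49.2) and B16F alone (44.3), Hoxa-Hoxc with B16F alone (49.8) and Hoxc-Hoxd with 2 Mb (42.8).

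Located windows of Hoxc lost the call with file 0 alone (63.8) and B18F alone (73.5), Hoxa gained one with 2 Mb (72.4), Hoxb crossed 50 with file 0 (51.8), file 1 (50.3), 2 Mb (57.5) and B18F alone (50.6), and Hoxd with file 1 (51.3) and B18F alone (61.1). The Hoxd segments lost the call with 2 Mb (62.99), shared windows left out (63.6) and B18F alone (69.3, where 5 nuclei cannot pass). Segments of Hoxb crossed with 5 windows (46.5), 2 Mb (47.8) and across minus within segments (38.95), of Hoxc with 5 windows (47.9), shared windows left out (42.2) and B18F alone (46.0), and of Hoxa with B18F alone (49.5). The file to file distance of Hoxc lost the call without shared windows (60.7) and in B18F alone (69.4), that of Hoxb gained one with 5 windows (68.5), and that of Hoxa crossed with 5 windows (49.98) and B18F alone (38.01). The spread of Hoxd crossed with 5 windows (48.9) and B18F alone (49.7). Distance from the centre crossed with the median as centre for Hoxb (63.1) and, past the threshold, Hoxc (70.4), and with B18F alone for Hoxd (42.0).

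Leaving out each nucleus in turn gave 37.8 to 45.3 for Hoxa-Hoxb, 59.7 to 66.2 for Hoxa-Hoxc (past the threshold without Cell20), 46.9 to 54.8 for Hoxa-Hoxd, 48.9 to 56.5 for Hoxb-Hoxc, 38.1 to 47.1 for Hoxb-Hoxd and 49.2 to 58.03 for Hoxc-Hoxd. Located windows were at 62.0 to 69.8 (Hoxa), 44.8 to 53.6 (Hoxb), 75.3 to 82.8 (Hoxc) and 40.5 to 50.1 (Hoxd). The segments were at 52.4 to 60.9 (Hoxa), 47.0 to 55.5 (Hoxb), 45.4 to 54.5 (Hoxc) and 70.3 to 76.2 (Hoxd). The spread was at 51.1 to 59.7 (Hoxa), 64.3 to 70.4 (Hoxb), 51.3 to 60.5 (Hoxc) and 46.4 to 53.2 (Hoxd). File to file distance was at 47.8 to 56.8 (Hoxa), 63.04 to 71.4 (Hoxb, past the threshold without Cell26 or Cell39), 61.6 to 69.4 (Hoxc) and 36.6 to 46.6 (Hoxd). Distance from the midpoint was at 47.1 to 53.6 (Hoxa), 42.1 to 49.6 (Hoxb), 40.6 to 50.6 (Hoxc) and 46.9 to 55.004 (Hoxd). Nuclei could not be paired with each other because each is a group of its own, and the replicate numbers only name its profiles. Clusters were compared with flanks, bins and the other file within each nucleus.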
